A study of Mus musculus with 6 samples.

Results

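The mRNA levels of 10 genes of the Notch pathway were compared between WT and Mcm8 KO mouse embryonic fibroblasts (MEFs): the 4 receptors Notch1, Notch2, Notch3 and Notch4, the 3 ligands Jag1, Jag2 and Dll1, and the 3 target genes Hes1, Hey1 and Heyl. The genes were taken by symbol, and 10 of the 55565 genes in the deposited tables matched, each of them once. All 10 belonged to the 26898 genes whose FPKM exceeded 0 in 1 or more libraries, which were the genes tested. Jag1 fell to 50.8% of its WT level in KO MEFs, Notch2 rose to 121%, and the other 8 genes did not pass the test. The Notch2 rise was small, and its call was lost in 6 of 16 alternative settings. Of 65 further genes of the pathway, 63 could be tested. Of the 54 that reached a mean of 1 CPM (counts scaled to the size of the library), 22.2% rose and 11.1% fell by edgeR, against 9.08% and 7.88% of all genes at that level, and 13% rose and 9.26% fell by DESeq2, against 6.8% and 6.04%. Rbpj, the DNA-binding partner of the cleaved receptors, was among those that fell. The pathway list was chosen with earlier results of these data known, so its shares are no test of the pathway.

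The study asked what loss of MCM8, a helicase-family protein of DNA repair, does to mitotic germ cells, and sequenced RNA of MEFs as one of its assays. The WT group held 3 libraries of MEFs of wild-type Mcm8 genotype (WT1, WT2 and WT3). The KO group held 3 libraries of MEFs homozygous for an Mcm8 deletion made with CRISPR-Cas9 (KO1, KO2 and KO3), which removes an internal exon and shifts the reading frame. Cells of both groups were derived from the trunk of E13.5 embryos, whose parents were Mcm8 heterozygotes of mixed C57BL/6J and ICR background, and both were immortalized by infection with an SV40 lentivirus and selected in puromycin. The 3 libraries of a genotype were called biological repeats, without a statement that each came from its own embryo or culture. The spread between these libraries may thus be technical. P-values by edgeR took that spread from a trend over genes, not from each gene alone.

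Notch receptors are single-pass membrane proteins that bind Jagged or Delta-like ligands on a neighbouring cell. Ligand binding exposes the receptor to cleavage by an ADAM protease and then by gamma-secretase, and the released intracellular domain enters the nucleus, joins RBPJ and a Mastermind-like coactivator, and turns on HES and HEY genes, which encode basic helix-loop-helix repressors. In mesenchyme the pathway is known for roles in somite formation, in the recruitment of mural cells to vessels and in holding back differentiation of several lineages.

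Mcm8 itself had 13.8, 16.6 and 12.8 CPM in the WT libraries, in the order WT1 to WT3, against 4.20, 4.45 and 4.12 CPM in the KO libraries, in the order KO1 to KO3, which is the order of every triplet given here (CPM, counts scaled to the size of the library with TMM factors). Every KO library was below every WT library, with a mean of 29.6% of WT, so the libraries followed their labels. The count covers the whole gene and does not isolate the deleted exon. Libraries held from 12722979 to 21022755 counts. The 10 fibroblast markers summed to 24700 to 29100 CPM in WT and 28600 to 29400 CPM in KO, carried mostly by Col1a1, Col1a2, Fn1, Vim and Col3a1, with Dcn at only 11.9 to 15.9 CPM and Lum at 1.02 to 1.86 CPM over all libraries. The genes Tie1, Emcn, Myod1, Pax7, Sox10 and Neurog2, which define endothelial, skeletal muscle or neural cells, were at 0 in all 6 libraries. Other markers of these lists had reads and some differed between genotypes, among them Erg, Pax3, Sox2 and Tubb3, as given with the marker lists at the end. Xist lay between 940 and 1360 CPM in WT and between 474 and 494 CPM in KO, and 4 Y-linked genes summed to 24.3 to 25.9 CPM in WT and 108 to 126 CPM in KO, so the sex make-up of the cells cannot be told apart from the genotype. In bulk RNA, fewer cells of a type and less RNA per cell cannot be told apart.

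Levels of different genes were compared as deposited FPKM, which are per length of the gene. In WT MEFs the order by mean FPKM was Hes1 (18.0 ± 0.498, SD, n = 3), Notch2 (16.6 ± 2.42), Jag1 (8.06 ± 0.955), Notch1 (4.46 ± 1.14) and Notch3 (0.650 ± 0.106). Below these came Dll1 at 0.193, Hey1 at 0.108, Jag2 at 0.0777, Notch4 at 0.0636 and Heyl at 0.0120 FPKM. Hes1 and Notch2 overlapped in WT, and so did each neighbouring pair from Dll1 to Notch4, while the other neighbours did not overlap. In KO MEFs the order was Notch2 (20.1 ± 0.640), Hes1 (16.6 ± 0.721), Notch1 (5.14 ± 0.352), Jag1 (4.10 ± 0.274) and Notch3 (0.789 ± 0.0472), with no overlap between any of these neighbours. Jag1 and Notch1 thus stood in opposite order in the 2 genotypes. By mean FPKM over all libraries, Notch2 was above 88.9% of tested genes, Hes1 above 88.3%, Jag1 above 74.3%, Notch1 above 71.1% and Notch3 above 52.3%, whereas Hey1, Dll1, Jag2, Notch4 and Heyl were below the middle of the tested genes.

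**Figure D1:**
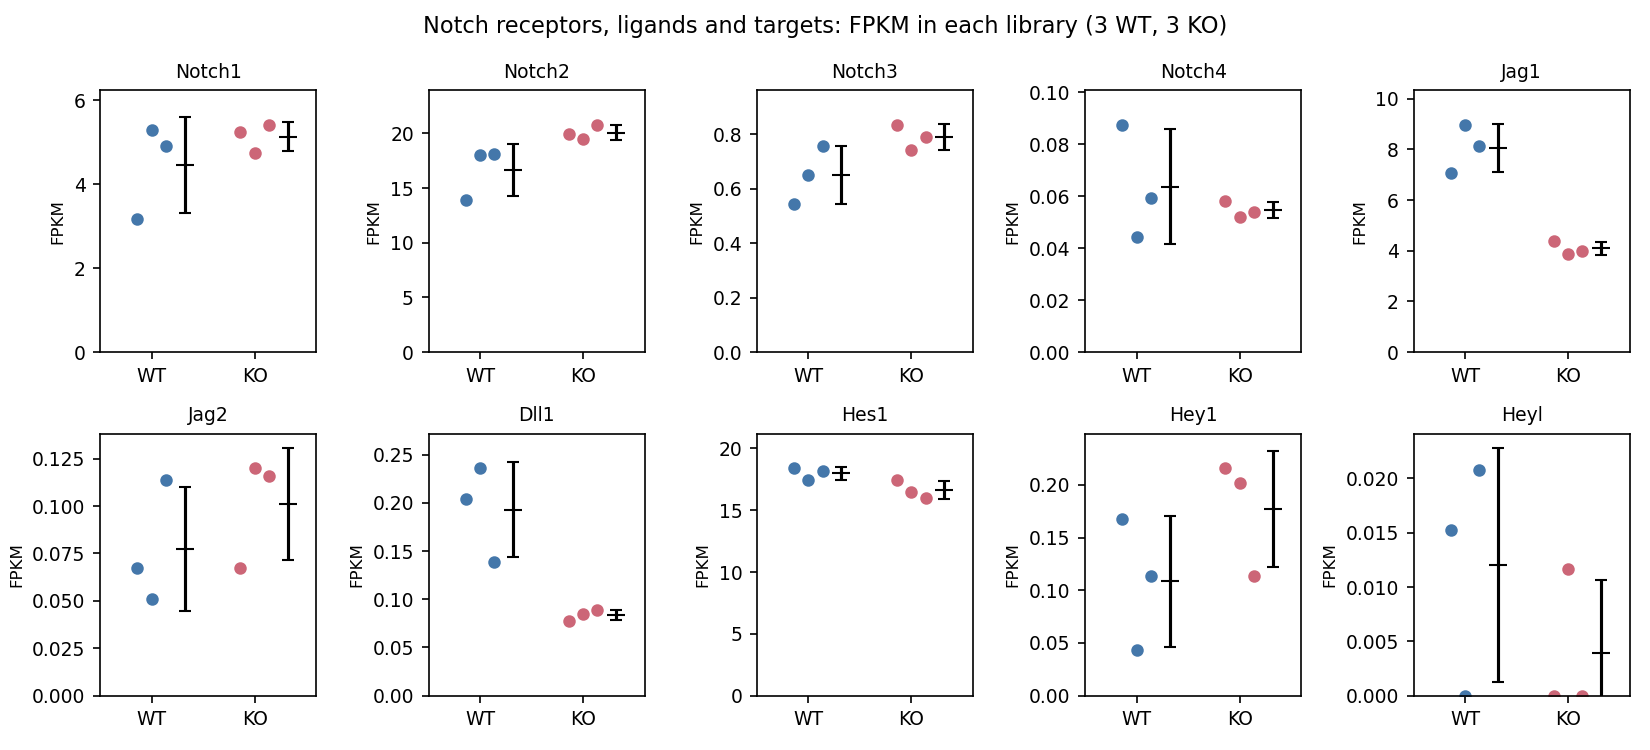
FPKM of the 10 genes in each library (vertical axis from 0, scale set per gene), with WT libraries in blue and KO libraries in red, 1 to 3 from left to right, and the mean and SD of 3 libraries as a black bar. The 3 KO libraries of Jag1 sit near 4.10 FPKM and the WT libraries near 8.06, and WT1 is the lowest library of Notch1, Notch2 and Notch3.

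Among the receptors, Notch2 was the most abundant and the only one that passed the test. Notch2 (ENSMUSG00000027878, chr3:97920843-98057677, plus strand) had 149, 194 and 197 CPM in WT and 216, 211 and 225 CPM in KO. All KO libraries lay above all WT libraries, and WT1 was the lowest. The log2 fold change was 0.27 (SE 0.07, 95% interval 0.13 to 0.41), with an adjusted p of 0.00262 by the quasi-likelihood test of edgeR with Benjamini-Hochberg adjustment over all tested genes. This difference is small: without WT1 it was 0.15 with an adjusted p of 0.0173, and without KO3 it was 0.25 with an adjusted p of 0.0547. Over 16 alternative settings it stayed between 0.15 and 0.34, and the call was lost in 6 of them.

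Notch1 (ENSMUSG00000026923, chr2:26347915-26406675, minus strand) had 45.1, 75.5 and 70.6 CPM in WT and 75.2, 67.7 and 77.4 CPM in KO. The genotypes overlapped, and WT1 alone was far below the other 5 libraries. Its log2 fold change was 0.20 (SE 0.08, 95% interval 0.04 to 0.36) with an adjusted p of 0.111 by edgeR. The value rests on WT1, since it was 0.01 with an adjusted p of 0.946 without that library, while it passed the test without WT2 (0.33, adjusted p 0.00247) and without WT3 (0.28, adjusted p 0.0282).

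Notch3, a receptor known from mural cells, was measured at 4.39, 5.27 and 6.17 CPM in WT and 6.80, 6.01 and 6.43 CPM in KO, from 56 to 144 counts a library. The ranges met, as KO2 lay below WT3, and the log2 fold change of 0.27 (95% interval -0.09 to 0.63, adjusted p 0.476 by edgeR) did not pass. Notch4, known as an endothelial receptor, had only 5 to 10 counts a library, or 0.705, 0.356 and 0.483 CPM in WT and 0.472, 0.421 and 0.437 CPM in KO. Its 95% interval, from -1.47 to 1.07 on the log2 scale, spans a 2-fold change in either direction.

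The make-up of the receptor pool by FPKM was close in the 2 genotypes. Notch2 held 76.5 ± 1.81% (SD, n = 3) of the summed FPKM of the 4 receptors in WT and 77.1 ± 0.778% in KO, Notch1 held 20.2% and 19.7%, and Notch3 held 2.99% and 3.03%. The summed receptor FPKM was 17.6, 24.0 and 23.8 in WT and 26.0, 25.1 and 27.0 in KO, all KO libraries above all WT libraries and WT1 the lowest. In the deposited annotation, Notch1, Notch2 and Notch4 share ankyrin repeats, EGF-like and calcium-binding EGF domains, the LNR domain and the NOTCH protein domain. The domain entry of Notch3 is empty there, which does not mean that the protein lacks them.

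Because Notch1 and Notch2 were low in WT1, that library was compared with WT2 and WT3 by gene length, a comparison chosen after the values had been seen. Gene length here is the deposited length used for FPKM, which for both receptors is far shorter than the span of the coordinates. Among genes with a mean of at least 10 CPM, WT1 differed from the mean of WT2 and WT3 by a median of 0.34 on the log2 scale for 243 genes of up to 1000 bases and by -0.33 for 248 genes of over 16000 bases, with values falling in order through the classes between them. Notch1, of 14232 bases, stood at -0.70 and Notch2, of 10782 bases, at -0.39, against a median of -0.15 and quartiles of -0.29 and -0.03 for the 1763 genes between 8000 and 16000 bases. Jag1, of 5827 bases, stood at -0.28 and Hes1, of 2037 bases, at 0.04. Set against WT2 and WT3 alone, KO MEFs differed by 0.01 for Notch1, 0.15 for Notch2, -0.10 for Hes1 and -1.07 for Jag1. The part of gene length in the receptor differences was not tested.

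**Figure D2:**
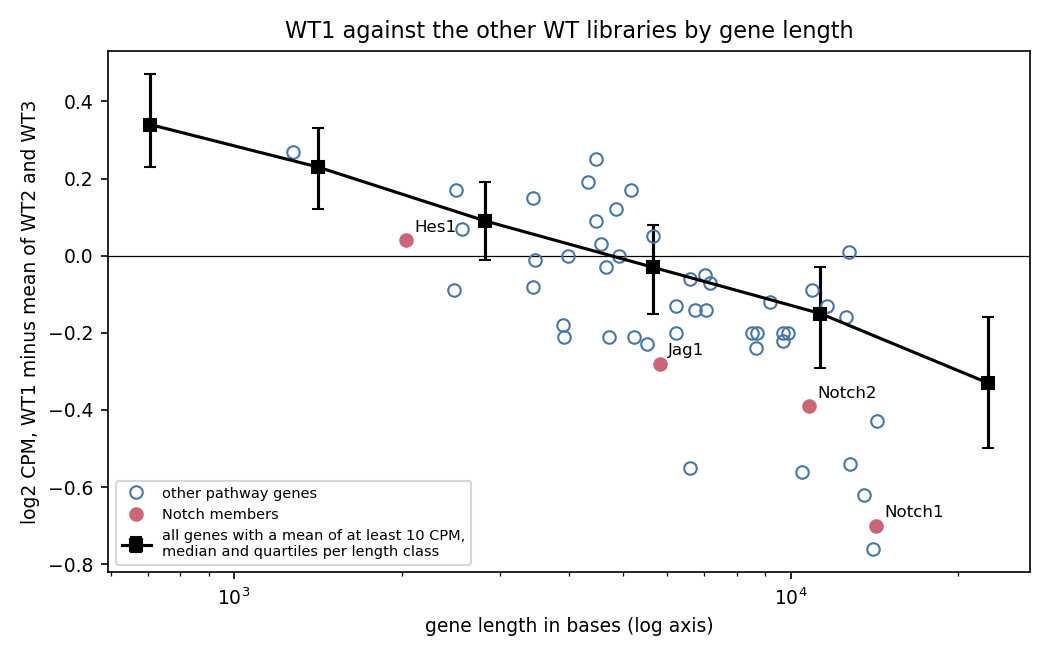
Log2 CPM of WT1 minus the mean of WT2 and WT3 (vertical axis) against gene length in bases as used for FPKM, not the genomic span (log axis). Black squares give the median and quartiles of all genes with a mean of at least 10 CPM in 6 length classes, red points the Notch genes and blue circles the other pathway genes; Notch1 at -0.70 and Notch2 at -0.39 lie below the lower quartile of -0.29 of their class.

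Jag1, which encodes the ligand Jagged1, held nearly all of the ligand signal and fell in KO MEFs. Jag1 (ENSMUSG00000027276) lies at chr2:136923376-136958564 on the minus strand in the coordinates of the tables. Its counts were 526, 735 and 893 in WT and 547, 377 and 376 in KO, which gave 41.2, 52.4 and 47.9 CPM in WT and 25.8, 22.7 and 23.5 CPM in KO. Every KO library was below every WT library, and the gap between KO1 and WT1 was wider than the range within either genotype. The log2 fold change was -0.97 (SE 0.09, 95% interval -1.16 to -0.79, adjusted p 1.04e-22 by edgeR), a fold of 0.509. It stayed between -1.06 and -0.83 over 16 alternatives and kept its call in 15 of them, the exception being a test against a 2-fold change. Jag1 stood just inside the 2-fold limit of the study's rule for differentially expressed genes (DEGs), and without WT1 (-1.06) or without KO1 (-1.03) it passed that rule.

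The promoter of Jag1 is shown because of the 2 members that passed the test this gene had the larger change. The RefSeq promoter table (GRCm38.p6) held an entry for 7 of the 10 genes and none for Hes1, Hey1 and Heyl. The 250 bases before the start, chr2:137116521-137116770, read on the minus strand from 5' to 3', with matches of the HES and HEY box CACGCG on either strand in capitals:
Jag1: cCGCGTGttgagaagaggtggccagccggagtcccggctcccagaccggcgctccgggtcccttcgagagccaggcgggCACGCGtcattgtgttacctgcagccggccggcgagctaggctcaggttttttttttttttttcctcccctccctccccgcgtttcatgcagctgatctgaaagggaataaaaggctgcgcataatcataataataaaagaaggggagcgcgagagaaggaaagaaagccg
The matches lay 249 bases (antisense strand) and 171 bases (sense strand) before the start. CACGCG matched, on either strand, in 4 of the 7 genes (Jag1, Jag2, Dll1 and Notch2) and in 9.27% of all 32851 promoters of the same length (300 bases, 50 of them after the start), and CACNAG matched in 4 of the 7 (Notch1, Notch2, Notch3 and Dll1) and in 42.5% of all. The promoters of the 7 genes held 55.7% to 86.0% G and C, against a median of 52.7% over all promoters, and Dll1 was counted over 2 promoter entries, so the shares of all promoters are no like-for-like background for these genes. The RBPJ core TGGGAA, found in 25.6% of all promoters, its longer form GTGGGAA, found in 6.38%, and CACGTG, found in 7.15%, matched in 0 of the 7 genes. A match describes letters in the window and does not show binding.

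Jag2 and Dll1 encode the other Jagged ligand and a Delta-like ligand, and both were near the lower limit of detection. Dll1 had 11, 14 and 11 counts in WT and 7, 6 and 6 counts in KO, or 0.862, 0.998 and 0.590 CPM against 0.330, 0.361 and 0.375 CPM. All KO libraries lay below all WT libraries, at a mean of 43.5% of WT. The log2 fold change of -1.17 had a 95% interval from -2.36 to 0.01 and an adjusted p of 0.287 by edgeR, so Dll1 did not pass the test. Jag2 had 0.470, 0.356 and 0.805 CPM in WT and 0.472, 0.842 and 0.812 CPM in KO, from 5 to 15 counts a library, and its interval ran from -0.76 to 1.41. Jag2 overlapped between genotypes, WT3 being close to KO2 and KO3.

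By FPKM, Jag1 held 96.7% of the summed level of the 3 ligands in WT and 95.6% in KO. The sum was 7.34, 9.27 and 8.39 FPKM in WT and 4.55, 4.08 and 4.22 FPKM in KO. Ligand sums were thus lower in every KO library, while receptor sums were higher. The ratio of Jag1 to Notch2 FPKM was 0.511, 0.50 and 0.450 in WT and 0.221, 0.199 and 0.193 in KO. Jag1, Jag2 and Dll1 share the Delta serrate ligand domain, EGF-like domains and the N terminus of Notch ligand in the deposited annotation.

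Jag1 lies on the chromosome of Mcm8, 4.24 Mb away. The deletion was made in C57BL/6 mice and crossed into a mixed background, so strain differences linked to Mcm8 and the loss of Mcm8 cannot be told apart for Jag1. Within 10 Mb of Mcm8, 10 of 110 genes with a mean of at least 1 CPM rose (9.09%) and 14 fell (12.7%), against 9.08% and 7.88% of all genes at that level. Only 2 other genes with a mean of at least 1 CPM lay within 1 Mb of Jag1, and neither passed the test. Slx4ip, 0.00951 Mb away, had a mean of 13.7 CPM in WT and 14.1 CPM in KO (log2 fold change 0.04, SE 0.13), and Mkks, 0.19 Mb away, had 7.16 and 6.89 CPM (-0.04, SE 0.17). Notch1 lies on the same chromosome at 106 Mb from Mcm8.

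Among the 3 target genes, Hes1 held nearly all of the signal and did not pass the test. Hes1 had 37.5, 35.6 and 37.4 CPM in WT and 35.6, 33.7 and 32.7 CPM in KO, from 478 to 755 counts a library. KO2 and KO3 were the lowest libraries, and KO1 met WT2. The mean was 92.4% of WT, and the 95% interval of the log2 fold change, -0.30 to 0.07, leaves out a 2-fold fall (adjusted p 0.582 by edgeR). Hes1 held 99.3% of the summed FPKM of the 3 targets in WT and 98.9% in KO.

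Hey1 had 7, 2 and 7 counts in WT and 15, 11 and 6 counts in KO, or 0.549, 0.143 and 0.376 CPM against 0.708, 0.661 and 0.375 CPM. KO3 lay inside the WT range, and the interval of the log2 fold change ran from -0.56 to 2.0. Heyl had 1, 0 and 2 counts in WT and 0, 1 and 0 counts in KO, at or under the floor of 3 counts in every library, so no fold is given. None of the 3 targets passed by edgeR, DESeq2 or limma-voom, and 0 of them had an unadjusted p below 0.05 with any of the 3 tools. Hes1 and Heyl both list the helix-loop-helix and Hairy Orange domains, and the domain entry of Hey1 is empty in the deposited annotation.

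**Figure D3:**
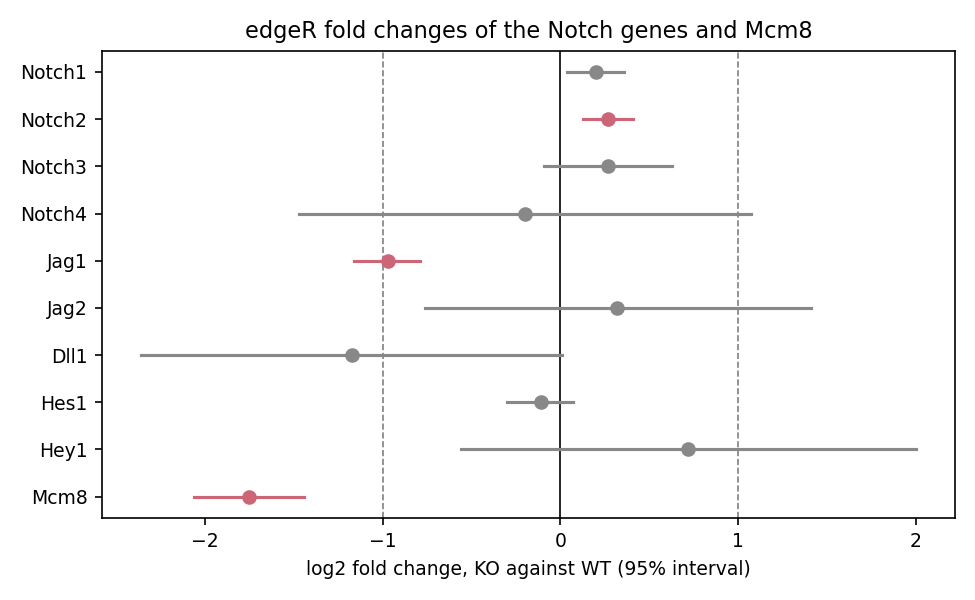
Log2 fold change of KO against WT by edgeR with its 95% interval (horizontal axis) for Mcm8 and 9 Notch genes, Heyl being left out because all its libraries were at or under 3 counts. Genes that passed the test are red, and dashed lines mark a 2-fold change; the interval of Jag1, -1.16 to -0.79, reaches across the lower line, and those of Notch4, Jag2, Dll1 and Hey1 are wide.

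Counted over the 10 genes, 1 rose and 1 fell, against 4.97% of all tested genes that rose and 4.03% that fell. Only 5 of the 10 (Notch1, Notch2, Notch3, Jag1 and Hes1) had a mean of at least 1 CPM, where the shares of all genes were 9.08% and 7.88%. By the DEG rule, which adds an absolute log2 fold change above 1, 0 of the 10 passed by edgeR and 0 by DESeq2, and with an unadjusted p below 0.05 it was 0 by edgeR, 0 by DESeq2 and 1 by limma-voom, beside 1.75% of all tested genes that rose and 0.665% that fell by that rule. In 1 gene, Notch2, every KO library was above every WT library, and in 2, Jag1 and Dll1, every KO library was below. Over all tested genes these shares were 11.6% and 10.1%. The median log2 fold change of the 10 was 0.04, and that of all tested genes was 0.01. An exact two-sided permutation test of 3 against 3 libraries cannot go below 0.1, the value it gave for Notch2, Jag1 and Dll1.

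The rest of the pathway was described over a list of 65 genes, of which Mfng and Hes2 had no counts. Of 63 tested, 12 rose (19.0%) and 6 fell (9.52%), against 4.97% and 4.03% of all tested genes. Listed genes were mostly well expressed, and among the 54 with a mean of at least 1 CPM these were 22.2% and 11.1%, against 9.08% and 7.88%. The number that rose depended on the tool and the libraries, with 7 by DESeq2 (13% of the 54, against 6.8% of all genes at that level), 7 by limma-voom (13% against 6.7%), 7 without KO1, without KO2 or without KO3, and 10 without WT1. The number that fell was 5 by DESeq2 (9.26% of the 54 against 6.04%), 6 by limma-voom (11.1% against 5.68%), 3 without KO1 and 6 without WT1. The list was chosen with earlier results of these data known, and levels were matched only by the cutoff of 1 CPM. These shares are therefore a description and no test of the pathway. The median log2 fold change of the list was 0.05. Only Neurl1a passed the DEG rule.

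**Figure D4:**
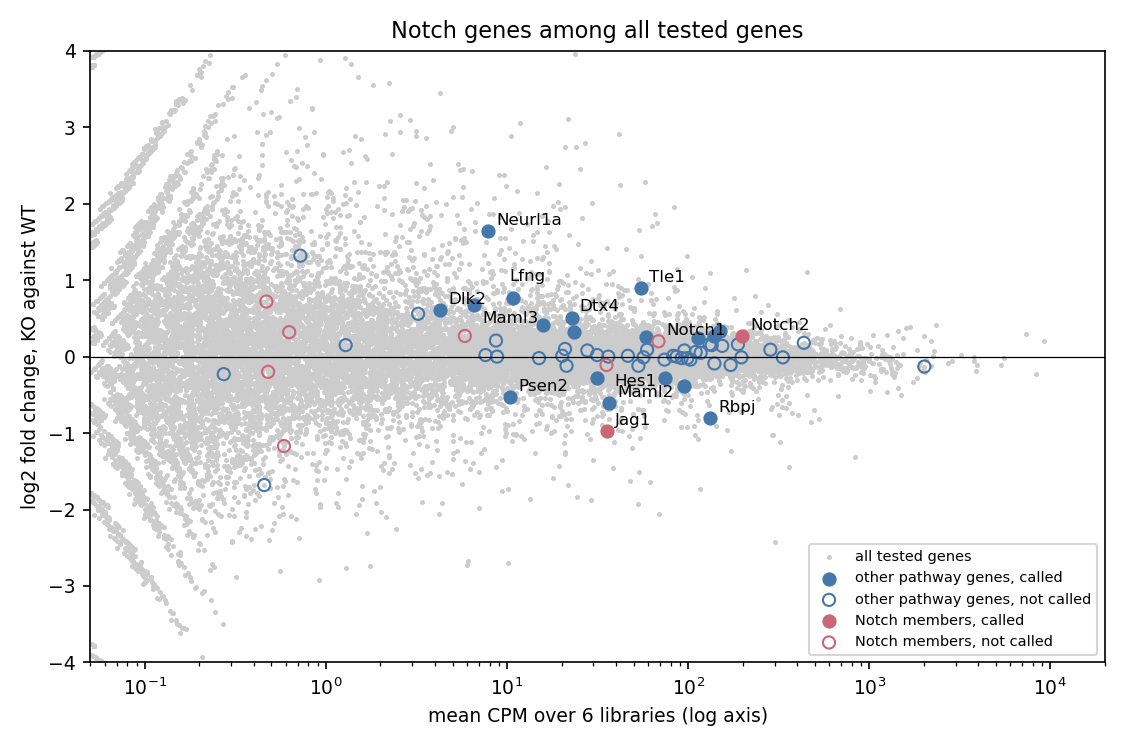
Log2 fold change of KO against WT (vertical axis) against mean CPM over 6 libraries (log axis) for tested genes in grey, the Notch genes in red and the other pathway genes in blue, filled where the gene passed the test. Axes stop at 4 and -4, which leaves out 335 genes with Dll4 among them, and at 0.05 CPM, which leaves out 5659 genes with Heyl, Dll3, Dtx1, Hes3, Hes5 and Hes7 among them; Jag1 and Rbpj are the lowest and Neurl1a and Tle1 the highest of the filled points above 5 CPM.

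In the nucleus, 3 of 9 coactivator genes fell and 1 rose by edgeR, against 7.88% and 9.08% of all genes that reached a mean of 1 CPM. DESeq2 and limma-voom each called 2 lower and 1 higher. Rbpj, whose protein binds the target promoters with or without Notch, had 169, 178 and 159 CPM in WT and 101, 91.8 and 96.5 CPM in KO. The genotypes were far apart and the log2 fold change was -0.80 (SE 0.07, adjusted p 3.08e-25 by edgeR). It kept its call in 15 of 16 alternatives and was -0.80 against WT2 and WT3 alone. A processed copy, Rbpj-ps3, with which reads may be shared, had 27.7, 35.6 and 32.8 CPM in WT and 34.3, 32.6 and 33.8 CPM in KO, with no call (0.07, adjusted p 0.736). Summed with its copy, Rbpj was at 64.9% of WT, against 57.3% on its own.

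Maml2, a Mastermind-like coactivator, had 33.5, 51.3 and 47.2 CPM in WT and 28.0, 31.2 and 27.7 CPM in KO. Every KO library was lower, the nearest being KO2 and WT1, and the log2 fold change was -0.61 (SE 0.09, adjusted p 3.3e-09). Its relative Maml3 went the other way, from 4.15, 6.20 and 4.83 CPM in WT to 7.55, 7.75 and 9.12 CPM in KO (0.68, SE 0.18, adjusted p 0.00209). Maml1, the third relative, had an interval of -0.15 to 0.15. Kat2b, an acetyltransferase gene, was called lower (-0.28, adjusted p 0.0487) although KO2 lay inside the WT range.

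Of 13 corepressor genes, 5 rose and 0 fell by edgeR, and 2 of them, Tle1 and Hdac1, also passed by DESeq2 and limma-voom, which called 0 lower. Of all genes with a mean of at least 1 CPM, 9.08% rose and 7.88% fell by edgeR. Tle1, a Groucho-family corepressor that HES proteins recruit, had 34.6, 38.7 and 40.9 CPM in WT and 68.2, 72.1 and 73.6 CPM in KO. All KO libraries were well above WT, with a log2 fold change of 0.90 (SE 0.09, adjusted p 9.25e-24) and a call in 15 of 16 alternatives. Tle2 rose by less, from 19.5, 20.6 and 22.2 CPM to 27.7, 25.0 and 25.1 CPM (0.32, adjusted p 0.0325), while Tle3 (0.06, 95% interval -0.08 to 0.21) and Tle4 (interval -0.30 to 0.30) did not pass. The Tle2 call was lost by DESeq2 (adjusted p 0.0814) and when any library but WT3 was left out, with adjusted p values from 0.0560 without WT1 to 0.291 without KO1.

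Spen, a large corepressor that binds RBPJ, had 90.1, 146 and 159 CPM in WT and 171, 166 and 165 CPM in KO. WT1 was far below the rest, and the log2 fold change of 0.34 (adjusted p 6.33e-05) became 0.14 (adjusted p 0.0668) without WT1, and DESeq2 did not call it (adjusted p 0.410). Spen has a length of 14089 bases as used for FPKM, and its WT1 value stood at -0.76 against WT2 and WT3, next to Notch1 at -0.70. It also overlaps Zbtb17 on the opposite strand, and the library kit was not stated to keep the strand. Hdac1, a histone deacetylase gene, rose from 136, 123 and 122 CPM to 147, 153 and 158 CPM (0.27, adjusted p 0.0042), and without KO3 it was 0.25 with an adjusted p of 0.0691. Its processed copy Hdac1-ps moved the other way (-0.29, adjusted p 0.0156), so the split of reads between them is uncertain. Summed with its copy, Hdac1 had 192, 167 and 167 CPM in WT and 185, 194 and 198 CPM in KO, and KO1 lay below WT1, so the genotypes overlapped. L3mbtl3, which encodes an RBPJ-binding corepressor, had 12.1, 12.6 and 15.7 CPM in WT and 18.3, 18.5 and 17.4 CPM in KO (0.41, adjusted p 0.0104). Its call was lost by DESeq2 (adjusted p 0.0553) and without WT2 (0.0557), KO1 (0.0732) or KO2 (0.0643).

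**Figure D5:**
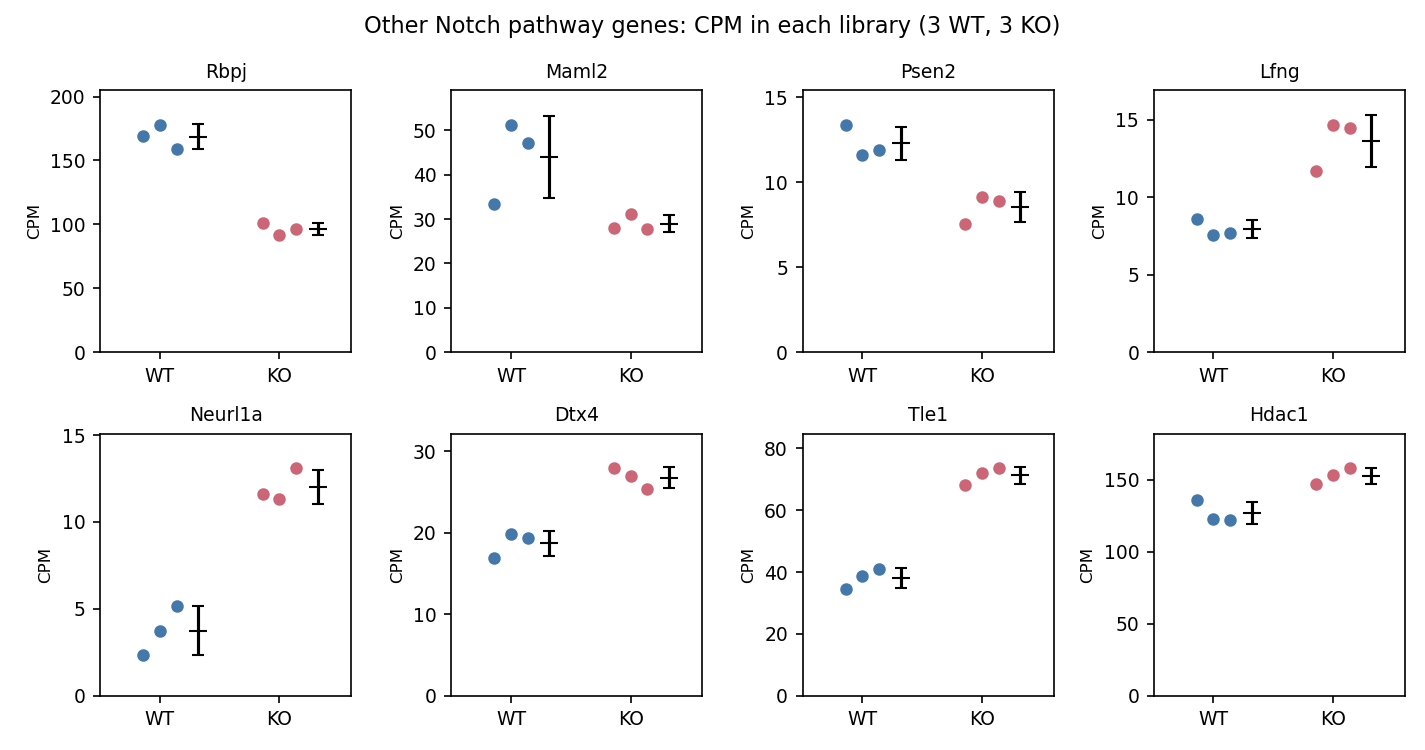
CPM of 8 other pathway genes in each library (vertical axis from 0, scale set per gene), with WT libraries in blue and KO libraries in red, 1 to 3 from left to right, and the mean and SD of 3 libraries as a black bar. Rbpj, Maml2 and Psen2 are lower and Lfng, Neurl1a, Dtx4, Tle1 and Hdac1 higher in every KO library, Hdac1 only when its processed copy is not added.

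Of the enzymes that add sugars to the receptor, 1 of 7 tested genes rose and 2 fell, with the same counts by DESeq2 and limma-voom, against 9.08% and 7.88% of all genes with a mean of at least 1 CPM. Lfng, the Fringe glycosyltransferase that changes which ligands a receptor responds to and is known from the somite clock, had 8.62, 7.56 and 7.73 CPM in WT and 11.7, 14.7 and 14.5 CPM in KO. KO1 was the lowest KO library and still above WT1, and the log2 fold change was 0.77 (SE 0.14, adjusted p 2.61e-06). Mfng was at 0 in all libraries and Rfng did not pass (-0.12, 95% interval -0.33 to 0.09). Gxylt2 and Xxylt1, which extend O-glucose with xylose, fell by 0.38 (adjusted p 1.98e-05) and by 0.28 (adjusted p 0.00636) on the log2 scale. The Xxylt1 call was lost without WT2 (-0.23, adjusted p 0.0632), KO1 (-0.28, adjusted p 0.0751) or KO3 (-0.27, adjusted p 0.0791). Pofut1 and Poglut1, which add the first sugars, had intervals of -0.14 to 0.16 and -0.17 to 0.16.

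The promoters of Lfng and Rbpj are shown because both genes kept their calls in 15 of 16 alternatives and both held RBPJ core matches, which none of the 7 genes above did. They were thus picked for these matches. Neurl1a and Tle1, which kept their calls in 16 and 15 of 16 alternatives, held 0 matches of TGGGAA. The 250 bases before the start are at chr5:140607091-140607340 for Lfng and chr5:53590096-53590345 for Rbpj (plus strand, RefSeq, GRCm38.p6), with matches on either strand of the RBPJ core TGGGAA and of the boxes CACGTG and CACGCG in capitals:
Lfng: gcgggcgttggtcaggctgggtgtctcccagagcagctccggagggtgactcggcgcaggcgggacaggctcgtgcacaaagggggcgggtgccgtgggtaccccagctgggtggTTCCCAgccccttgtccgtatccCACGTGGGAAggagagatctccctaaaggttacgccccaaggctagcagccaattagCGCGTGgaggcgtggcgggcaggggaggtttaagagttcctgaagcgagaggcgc
Rbpj: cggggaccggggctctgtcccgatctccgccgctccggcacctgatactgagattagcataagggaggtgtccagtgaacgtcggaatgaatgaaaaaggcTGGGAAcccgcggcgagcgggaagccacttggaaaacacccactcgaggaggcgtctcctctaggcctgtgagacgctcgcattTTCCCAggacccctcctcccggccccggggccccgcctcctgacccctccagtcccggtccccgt
In Lfng, TGGGAA matched 135 bases (antisense) and 108 bases (sense) before the start, CACGTG matched at 112 bases and CACGCG at 55 bases (antisense). The CACGTG and the nearer TGGGAA overlap and stand in capitals as 1 run. In Rbpj, TGGGAA matched 149 bases (sense) and 65 bases (antisense) before the start. Of 54 other pathway genes with a promoter entry, 18 held TGGGAA, which 25.6% of all promoters held. Some of these genes were counted over several promoter entries, so the share of all promoters is no like-for-like background.

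Of 10 genes for proteases that cut the receptor, 1 fell and 0 rose, by edgeR, DESeq2 and limma-voom alike, against 7.88% and 9.08% of all genes with a mean of at least 1 CPM. Psen2, a catalytic subunit of gamma-secretase, had 13.4, 11.6 and 11.9 CPM in WT and 7.55, 9.14 and 8.93 CPM in KO. The genotypes did not overlap, and the log2 fold change was -0.53 (SE 0.14, adjusted p 0.0042). Without KO1 it was -0.44 with an adjusted p of 0.102. Adam10, the sheddase of the cut that follows ligand binding, had an interval of -0.25 to 0.03.

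Among 13 genes of ligand endocytosis and receptor turnover, 3 rose and 0 fell by edgeR, against 9.08% and 7.88% of all genes with a mean of at least 1 CPM, while DESeq2 called 2 higher and 0 lower and limma-voom 2 higher and 1 lower. Neurl1a, which encodes a ubiquitin ligase of the Neuralized family that acts on ligands, had 2.35, 3.71 and 5.15 CPM in WT and 11.6, 11.3 and 13.1 CPM in KO. It was the gene of the list with the largest called change, a mean of 321% of WT (log2 fold change 1.64, SE 0.17, adjusted p 3.79e-20), and kept its call in 16 of 16 alternatives. Dtx4, a Deltex ubiquitin ligase gene, rose from 16.9, 19.8 and 19.3 CPM to 27.9, 26.9 and 25.4 CPM (0.51, SE 0.11, adjusted p 4.71e-05). Numbl, a relative of the Notch antagonist Numb, had 47.6, 53.7 and 59.0 CPM in WT and 61.8, 64.5 and 65.3 CPM in KO (0.25, adjusted p 0.0301), a call lost by DESeq2 (adjusted p 0.0720) and without WT1 (0.18, adjusted p 0.0927) or without any KO library, with adjusted p values up to 0.158. Numb had an interval of -0.18 to 0.19, and Dtx1 was at or under 3 counts in every library.

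Of 5 other ligand genes, 2 rose by edgeR and 1, Dlk1, by DESeq2 and limma-voom, against 4.97% of all tested genes that rose by edgeR. Dlk1, an imprinted Delta-like gene abundant in fetal mesenchyme, had 106, 101 and 105 CPM in WT and 121, 124 and 125 CPM in KO (0.24, SE 0.07, adjusted p 0.0174). Its call was lost without WT2 (0.22, adjusted p 0.0561) or any KO library, with adjusted p values from 0.0896 to 0.115. Dlk2 had 3.53, 2.85 and 3.65 CPM in WT and 5.00, 5.17 and 5.25 CPM in KO (0.61, adjusted p 0.0476), kept its call in only 4 of 16 alternatives and overlaps Abcc10 on the opposite strand. The Dlk2 call was lost by DESeq2 (adjusted p 0.127) and when any library but WT1 was left out, with adjusted p values from 0.0503 without WT3 to 0.17 without WT2. Dll3 was at the floor, and Dll4 had 0 counts in every WT library and 1, 5 and 1 counts in KO.

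Of 6 other targets tested, 0 passed by edgeR, DESeq2 or limma-voom, and 1, Hey2, had an unadjusted p below 0.05 with each of the 3 tools. Of all tested genes 4.97% rose and 4.03% fell by edgeR. Hey2 had 0.157, 0.499 and 0.537 CPM in WT and 0.755, 1.26 and 1.12 CPM in KO, from 2 to 21 counts a library, and all KO libraries were above WT. Its adjusted p was 0.107 by edgeR. Hes6 had 9.17, 6.27 and 8.69 CPM in WT and 9.06, 9.56 and 9.37 CPM in KO and did not pass. Hes3, Hes5 and Hes7 were at or under 3 counts in every library.

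Cell type markers that moved with the genotype are given beside these results. Of all tested genes 4.97% rose and 4.03% fell, and of those at a mean of 1 CPM or more 9.08% rose and 7.88% fell. Of 8 smooth muscle and pericyte markers, 3 fell, namely Acta2 (-0.41), Cspg4 (-0.64) and Mcam (-0.81), and the list summed to 1810 to 1950 CPM in WT and 1360 to 1410 CPM in KO. Most of that sum was Acta2, at 1590 to 1770 CPM in WT and 1220 to 1270 CPM in KO. The other 5 markers were not called. Pdgfrb (-0.74) and Thy1 (-1.03) fell among the fibroblast markers, of which 3 rose and 3 fell out of 10. Of 4 skeletal muscle markers tested 1 fell, Pax3 (-1.55), and the list summed to 5.02 to 5.77 CPM in WT and 1.62 to 2.36 CPM in KO. Of 5 epithelial markers tested, Krt8 and Krt18 rose, with a list sum of 0.642 to 1.1 CPM in WT and 5.53 to 6.56 CPM in KO. Of 4 neural markers tested, Sox2 and Tubb3 rose, and the sum, most of it Tubb3, was 21.9 to 24.3 CPM in WT and 33.5 to 36.2 CPM in KO. Endothelial markers summed to 1.57 to 4.49 CPM in WT and 3.97 to 5.83 CPM in KO, with Erg called higher, and blood markers to 1.78 to 2.15 and 1.80 to 2.83 CPM. The part of these cell types in the Jag1 and Notch2 results was not tested.

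For likeness of profile, each gene's log2 CPM was centred on its mean over the 6 libraries and compared with that of Jag1 or Notch2 over 11761 protein-coding genes with a mean of at least 1 CPM. Closest to Jag1 were Bend6 (root mean square difference 0.0625), Lyn (0.0718) and Siglecg (0.0749), whose log2 fold changes were -0.98, -1.0 and -0.91. Among the closest to Notch2 were Zfp592 (0.0231) and Zmiz1 (0.0252), with log2 fold changes of 0.25 and 0.31. Both also had their lowest level in WT1, as Zmiz1 had 169 CPM in WT1 and from 226 to 263 CPM in the other 5 libraries.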

How the data were processed

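RNA was sequenced from 3 WT and 3 KO MEF libraries. The authors deposited raw read counts per gene and FPKM values for the same genes. According to the submitters' processing notes, CASAVA 1.8, fastp, HISAT2 2.0.5, featureCounts 1.5.0-p3 and DESeq2 1.20.0 were used. These notes name GRCm38 (mm10) and the study's methods a newer Ensembl release. The deposited gene starts matched GENCODE M21 (GRCm38) for 0 of 10 members, so coordinates of genes were printed as the tables give them, whereas those of promoters are RefSeq GRCm38.p6.

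Counts of genes whose FPKM exceeded 0 in 1 or more libraries were fitted with the quasi-likelihood test of edgeR 4.0.16 (R 4.3.3) after TMM normalization, without covariates, and p-values were adjusted over all 26898 genes by the Benjamini-Hochberg method, with a call at an adjusted p below 0.05. The prior degrees of freedom were infinite, so each gene took its spread from the trend, which understates the p-values of genes that vary more. Standard errors were derived from the fit, and 95% intervals from these. CPM were scaled with TMM factors. For the exact permutation test and the profiles, 0.5 was added to CPM before the log2. A count of 3 or fewer in every library was the floor. DESeq2 1.42.0, limma 3.58.1 (voom, and log2 of FPKM plus 1 or 0.1), a test against a 2-fold change, RLE scaling, other gene filters, a replicate block and each library left out in turn were the alternatives, and the WT1 length comparison and the sums with processed copies were chosen after seeing the data. The pipeline was tested on simulated data. Figures and summaries used Python 3.11.15 with pandas 2.3.3, NumPy 2.4.6, SciPy 1.17.1 and matplotlib 3.10.9.

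The members, the pathway list and the marker lists were chosen with earlier results of these data known. Named were all 10 members, Mcm8, pathway genes that passed the test without overlap between genotypes, pathway genes at or under the floor, markers of other cell types, and the 3 genes closest in profile to the members with the largest rise and the largest fall among those that passed the test. Other pathway genes (Kat2b, Maml1, Tle3, Tle4, Rfng, Pofut1, Poglut1, Adam10, Numb, Dll4, Hey2 and Hes6) were named after their values had been seen. Counting intervals and floors cover counting error only. Some genes covered by these rules are not reported here.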

Additional observations from a re-analysis of the deposited data

How the results depend on the processing

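Jag1 kept its fall in 15 of 16 alternatives (-1.06 to -0.83) and Mcm8 in 16 of 16 (-1.84 to -1.18). The 1 member that rose became 0 in the test against a 2-fold change, in limma on log2(FPKM + 1) or log2(FPKM + 0.1), with genes passing filterByExpr and with an FPKM above 0 in every library, and ranged from 0 to 2 with single libraries left out. The 1 member that fell became 0 in the test against a 2-fold change. The 0 members passing the DEG rule ranged from 0 to 1 with libraries left out, the 1 being Jag1 without WT1 or without KO1. The 12 pathway genes that rose became 7 by DESeq2, 7 by limma-voom, 1 in the test against a 2-fold change, 5 in either limma fit on FPKM, and ranged from 7 to 14 with libraries left out, 7 of them without KO1, without KO2 or without KO3. The 6 that fell became 0 in the test against a 2-fold change and 1 in either limma fit on FPKM, and ranged from 3, without KO1, to 6. Notch4, at 5 to 10 counts a library, changed sign without WT1 (0.07) and ranged down to -0.39 without WT2. Where a fit used fewer libraries it had less to test with, and otherwise the cause was not tested. With RLE in place of TMM scaling the median log2 fold change moved by -0.000693.

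Libraries shared a replicate number but nothing stated that the number paired them, and their deviations did not correlate (-0.0249, -0.0157 and 0.0374 for numbers 1, 2 and 3). With the replicate number as a block, 1 member rose, 1 fell, 0 passed the DEG rule, Jag1 stood at -0.97, Notch2 at 0.28 and Mcm8 at -1.75, and 13 pathway genes rose and 6 fell. The block changed the call of no member and of no pathway gene described above as risen or fallen without overlap.

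Depth limits Notch4, Jag2, Dll1 and Hey1, with at most 15 counts in any library and 95% intervals over 2 log2 units wide, and Heyl, at the floor.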
